A study of Homo sapiens with 6 samples.

Results

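The ATP-binding cassette (ABC) genes are the members described here: every gene whose symbol in the platform annotation begins with ABCA, ABCB, ABCC, ABCD, ABCE, ABCF or ABCG and a digit. The rule found 46 genes on 74 probes, out of 20046 genes named through that annotation. Expression was measured on 6 Illumina bead arrays of MDA-MB-231, a human line of triple-negative breast cancer. The 3 antagomiR-138 samples carried a lentivirus that transcribes an inhibitor of miR-138 constitutively from an RNA polymerase III promoter, and the 3 scrambled control samples carried the same kind of vector with a non-targeting insert. Both groups received 6 transduction units, carried a fluorescent reporter and a puromycin resistance gene, and were harvested at 72 h (day 3). The labels call the inhibitor antimiR-138.

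ABC proteins bind and hydrolyse ATP on a conserved nucleotide-binding domain. Most use that energy to move lipids, sterols, drug conjugates, peptides or haem precursors across a membrane, as full transporters or as dimers of shorter chains. The ABCE and ABCF proteins have no membrane domain and act on ribosomes and translation instead. In breast cancer the family is known above all for drug efflux, through ABCB1 (P-glycoprotein), ABCG2 (breast cancer resistance protein) and the ABCC multidrug resistance proteins.

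The inhibitor is directed at the 5p arm of miR-138, which is shown here as the intended target. Its seed, bases 2 to 8, is in capitals. Human cells encode the same mature RNA at chr3:44114234-44114256 (MIR138-1) and chr16:56858527-56858549 (MIR138-2), both on the plus strand of GRCh38.p14 in RefSeq.
hsa-miR-138-5p: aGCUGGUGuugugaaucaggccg
The arrays do not report mature miRNAs, and the probes of both precursor genes were above background on 0 arrays (lowest detection p 0.395).

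Signals are log2 values after background correction and quantile normalization, and a probe counted as above background on an array when its detection p, set against the negative controls of that array, was under 0.05. Arrays detected 19263 to 20430 of 47322 probes and 29 to 31 of the 74 ABC probes. The precision is limited by the number of arrays, and separate cultures are stated in no source for the replicates, so the p-values rest on a spread between arrays that may be technical. Of 10 named markers of the basal and mesenchymal phenotype, 7 were above background on all 6 arrays, among them VIM and CD44, and 3 (KRT5, KRT14 and SPARC) on 0 arrays. Of 10 named luminal, hormone receptor and HER2 markers, 5 were above background on all 6 arrays (ERBB2, KRT8, KRT19, EPCAM and GATA3) and 3 on 0 arrays. These 3 were FOXA1 and the hormone receptor genes that triple-negative cells lack, ESR1 and PGR. ERBB2 had a mean log2 signal of 9.02 in antagomiR-138 and 10.17 in scrambled control. Linear signals were summed over each list and put on the log2 scale, so the brightest genes weigh most. The basal and mesenchymal list was at 16.55 to 16.57 in antagomiR-138 and 16.75 to 16.81 in scrambled control. The luminal list was at 12.87 to 12.94 in antagomiR-138 and 13.41 to 13.47 in scrambled control. The part of these markers in the results was not tested.

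A gene was tested when a probe was above background on at least 3 of the 6 arrays, and it was represented by its brightest such probe. This admitted 24 of the 46 ABC genes (52.2%), against 57.0% of all named genes. Each log2 fold change sets antagomiR-138 over scrambled control. Tests were made in limma, with Benjamini-Hochberg adjustment across the 11426 genes and a threshold of 0.05. Upon miR-138 knockdown 10 of the 24 tested ABC genes were higher and 5 lower, while 9 did not pass. The 10 include ABCC11, which entered the test only through the antagomiR-138 arrays. The split moved with the normalization, to 8 higher and 7 lower with median scaling and 9 higher and 7 lower with cyclic loess. Of all genes 48.7% passed with median scaling and 60.0% with cyclic loess. Across all tested genes 60.1% passed, 30.9% in the higher and 29.1% in the lower direction, so the 62.5% of ABC genes that passed is close to the background. The median log2 fold change was 0.05 in the ABC genes and 0.02 in all genes. The arrays report whole cultures, so a lower signal from fewer expressing cells and from less RNA per cell cannot be told apart.

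**Figure D1:**
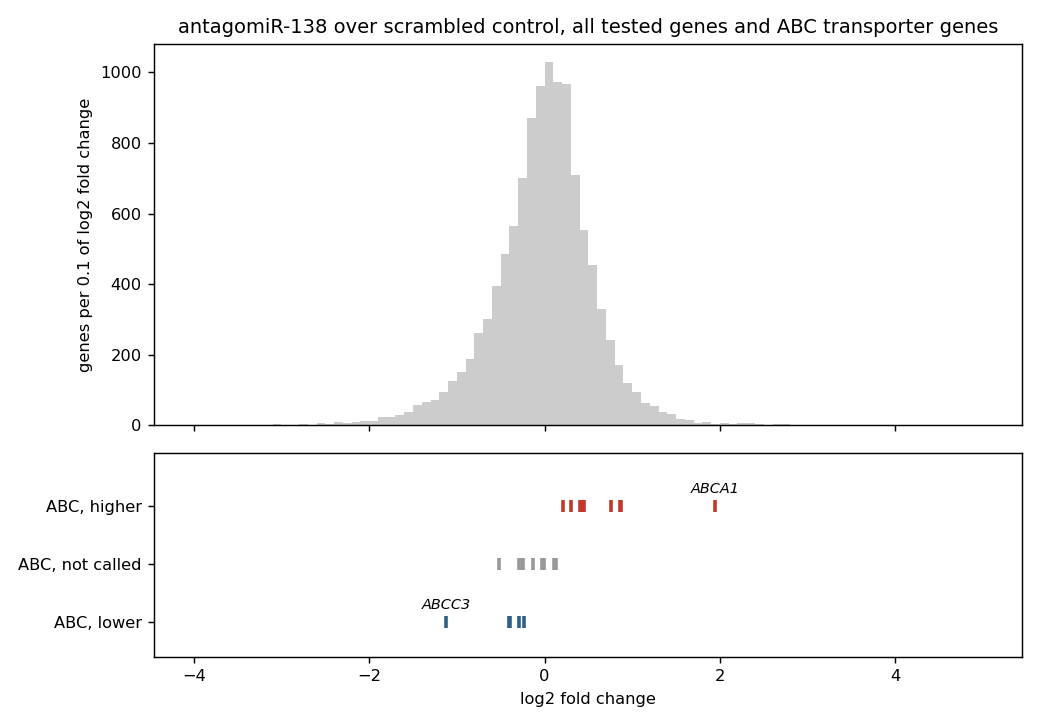
Upper panel: number of tested genes per 0.1 of log2 fold change (antagomiR-138 over scrambled control). Lower panel: each tested ABC gene as a tick at its log2 fold change, in rows for higher, not past the test and lower. ABCA1 (1.94) stands at the upper end of the family and ABCC3 (−1.12) at the lower end.

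The share of large changes in the ABC genes was near that of all genes. A change of at least 1.5-fold that also passed the test was seen in 5 of 24 ABC genes (20.8%), against 25.1% of all genes. These were the cholesterol exporter ABCA1, the lamellar body lipid transporter ABCA3 and the drug efflux genes ABCC5 and ABCC10, all higher, and the organic anion exporter ABCC3, which was lower. Groups were free of overlap in 16 of 24 genes (66.7%), where 66.6% of all genes showed the same.

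**Figure D2:**
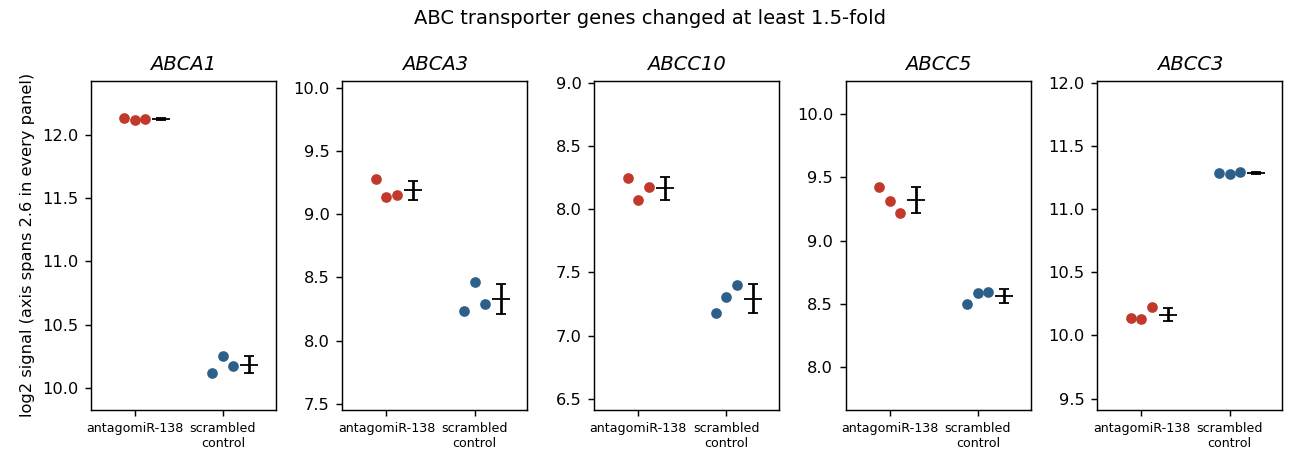
Log2 signal of the 5 ABC genes that changed at least 1.5-fold, with antagomiR-138 arrays (red) left of scrambled control arrays (blue), 1 point per array and the mean with its SD (n = 3) beside the points. The vertical axes differ in level but span the same range, and the groups are apart in every panel.

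Among the ABCA genes, which encode full-length lipid transporters, 3 of the 7 tested were higher, 1 was lower and 3 did not pass. Of all tested genes 30.9% were higher and 29.1% lower. ABCA1, which hands cellular cholesterol and phospholipid to apolipoprotein A-I, had log2 signals of 12.13, 12.12 and 12.13 in antagomiR-138 and 10.12, 10.25 and 10.17 in scrambled control. The 3 antagomiR-138 arrays lay almost on one another and far above every control array. ABCA1 was thus 3.84-fold higher (log2 fold change 1.94, standard error (SE) 0.0578, limma adjusted p = 2.70e-06), rank 42 among the 3536 genes called higher. Leaving out any 1 array kept the log2 fold change of ABCA1 between 1.91 and 1.98, and the call held in all 19 other settings.

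ABCA3 loads phospholipid into the lamellar bodies of lung alveolar cells. Its log2 signals were 9.27, 9.14 and 9.15 in antagomiR-138 and 8.23, 8.47 and 8.29 in scrambled control. All antagomiR-138 arrays were above all control arrays, by 1.82-fold on average (log2 fold change 0.86, SE 0.0804, limma adjusted p = 0.000127).

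ABCA7, a phospholipid transporter close in sequence to ABCA1 and a risk gene for Alzheimer disease, gave 7.14, 6.76 and 6.94 in antagomiR-138 and 6.64, 6.66 and 6.63 in scrambled control on the log2 scale. The control arrays were tight and all lay below the antagomiR-138 arrays, which were spread more widely. The log2 fold change was 0.30 (SE 0.0961, limma adjusted p = 0.0291), and the call was lost in 12 of 19 other settings. It was lost without antagomiR-138 replicate 1 (log2 fold change 0.21, adjusted p = 0.0571) or 3 (0.31, adjusted p = 0.0645), and without scrambled control replicate 1 (0.30, adjusted p = 0.0697), 2 (0.31, adjusted p = 0.0631) or 3 (0.30, adjusted p = 0.0741).

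ABCA8, ABCA9 and ABCA10 stand side by side on the genome with ABCA5 and ABCA6, as 1 run of 5 neighbouring genes. Only ABCA10 of the tested members of this run passed, at 6.25, 6.43 and 6.38 in antagomiR-138 and 6.66, 6.83 and 6.80 in scrambled control (log2 signal). Its groups did not overlap (log2 fold change −0.41, SE 0.0757, limma adjusted p = 0.00308). ABCA9 gave 6.05, 5.89 and 5.87 in antagomiR-138 and 5.70, 6.18 and 6.03 in scrambled control, with overlapping groups (log2 fold change −0.03, 95% confidence interval −0.33 to 0.27). ABCA8 sat at the edge of background, above it on 1 antagomiR-138 array and 2 control arrays, and its values of 5.13, 5.24 and 5.76 in antagomiR-138 and 5.46, 5.24 and 5.45 in scrambled control overlapped (log2 fold change −0.01, 95% confidence interval −0.40 to 0.39). These neighbours are paralogs, and whether their probes are specific was not examined.

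ABCA2, an endolysosomal lipid transporter best known from myelinating cells, gave 5.73, 5.95 and 5.11 in antagomiR-138 and 6.08, 6.16 and 6.12 in scrambled control. Every antagomiR-138 array was below every control array, but replicate 3 lay far under the others and was not above background. The log2 fold change of −0.52 did not pass (SE 0.199, limma adjusted p = 0.0576). It passed without antagomiR-138 replicate 2 (−0.70, adjusted p = 0.0190) and without antagomiR-138 replicate 3 (−0.28, adjusted p = 0.0361). ABCA2 also passed with a normexp offset of 50 (adjusted p = 0.0301), no further background correction (0.0412), cyclic loess (0.0398), median scaling (0.00397) and a variance that follows intensity (0.0274).

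Of the ABCG genes, whose products dimerize to move sterols or drugs, none of the 2 tested passed, where 60.1% of all genes passed. ABCG1, which passes cholesterol on to high-density lipoprotein and often works alongside ABCA1, had log2 signals of 7.55, 7.55 and 7.44 in antagomiR-138 and 7.54, 7.69 and 7.70 in scrambled control. The groups overlapped, and the log2 fold change of −0.13 did not pass (SE 0.0689, limma adjusted p = 0.143, 95% confidence interval −0.29 to 0.03). Another 4 ABCG1 probes, designed to other transcripts, did not enter the test. Their mean log2 differences, antagomiR-138 minus scrambled control, were 0.06, 0.34, 0.21 and 0.11, all at or near background. ABCG4, the closest relative of ABCG1, gave 5.92, 6.22 and 6.08 in antagomiR-138 and 6.22, 6.57 and 6.19 in scrambled control (log2 fold change −0.25, limma adjusted p = 0.118).

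ABCG2, the breast cancer resistance protein, was close to background. Its probe was above it on 0 of 3 antagomiR-138 arrays and 2 of 3 control arrays, too few to enter the test. The log2 signals were 4.92, 4.85 and 4.98 in antagomiR-138 and 5.13, 5.90 and 5.72 in scrambled control. The groups did not overlap, and with no detection filter the log2 fold change was −0.67 (limma adjusted p = 0.0292).

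Of the ABCC multidrug resistance genes all 5 tested passed, 3 higher and 2 lower, where 60.1% of all genes passed. The 3 include ABCC11, which entered the test only through the antagomiR-138 arrays. ABCC3, which exports glucuronide conjugates and bile salts across the basolateral membrane, had log2 signals of 10.13, 10.13 and 10.22 in antagomiR-138 and 11.28, 11.28 and 11.29 in scrambled control. Replicates of either group differed by less than 0.1, while the groups were more than 1 apart. ABCC3 was 2.17-fold lower (log2 fold change −1.12, SE 0.0547, limma adjusted p = 9.73e-06), and it stayed between −1.15 and −1.09 over 19 other settings.

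ABCC10, an exporter linked to taxane resistance, moved the other way, with 8.25, 8.07 and 8.17 in antagomiR-138 and 7.18, 7.30 and 7.40 in scrambled control. No antagomiR-138 array reached down to a control array (1.83-fold higher, log2 fold change 0.87, SE 0.0806, limma adjusted p = 0.000121). ABCC5, which exports cyclic nucleotides and nucleotide analogues, had signals of 9.43, 9.31 and 9.22 in antagomiR-138 and 8.50, 8.59 and 8.60 in scrambled control. The groups were again apart, by 1.69-fold (log2 fold change 0.76, SE 0.0714, limma adjusted p = 0.000131). Another ABCC5 probe read 8.16, 8.38 and 8.19 in antagomiR-138 and 7.32, 7.50 and 7.55 in scrambled control, a log2 fold change of 0.79 (limma adjusted p = 0.000610 over all entering probes, of which 49.9% passed).

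ABCC4 carries cyclic AMP and prostaglandins out of the cell. Its log2 signals of 9.73, 9.73 and 9.63 in antagomiR-138 lay below the 10.05, 10.03 and 9.90 of scrambled control, without overlap (log2 fold change −0.30, SE 0.0666, limma adjusted p = 0.00737). Another ABCC4 probe gave −0.23 (adjusted p = 0.0760 over all entering probes), with 9.73, 9.45 and 9.46 in antagomiR-138 and 9.78, 9.83 and 9.73 in scrambled control, so that antagomiR-138 replicate 1 lay only just under the lowest control.

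ABCC11, the exporter behind the human earwax types, was dim. Its probe was above background on 3 of 3 antagomiR-138 arrays and 0 of 3 control arrays, with 5.69, 5.56 and 5.45 in antagomiR-138 and 5.14, 5.00 and 5.28 in scrambled control. Set against the lowest signal that each control array could call, ABCC11 was at least 1.13-fold higher. The limma adjusted p of 0.00734 belongs to the log2 fold change of 0.43, which uses control signals below background, and not to that bound. ABCC11 entered the test only through the antagomiR-138 arrays, and a variance that follows intensity ended the call (limma adjusted p = 0.0593). ABCC2, the canalicular exporter of conjugated bilirubin, was above background on 0 arrays, and with no detection filter its log2 fold change was 0.31 (adjusted p = 0.0157), from signals that were all below background.

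**Figure D3:**
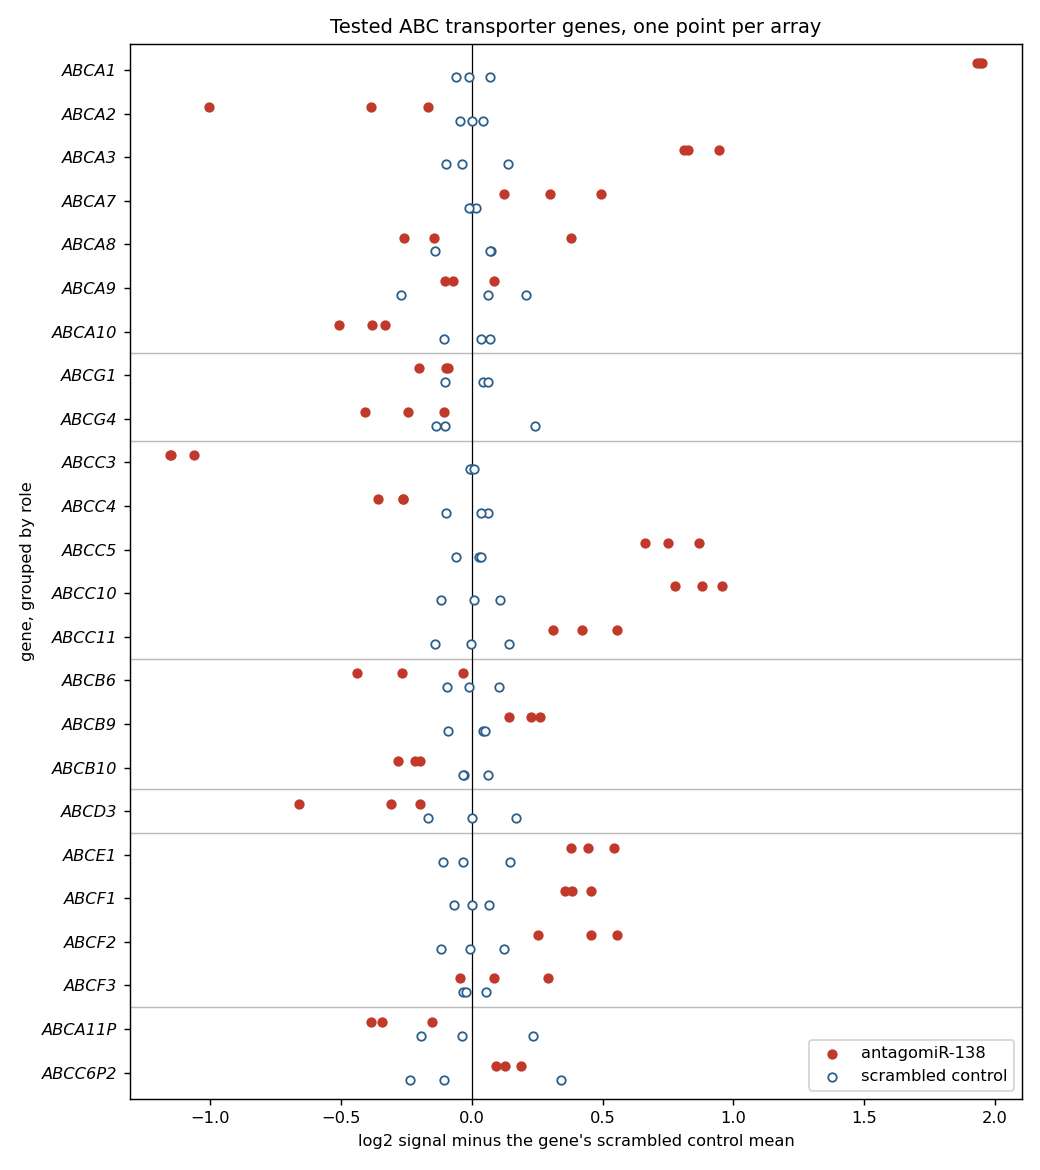
Log2 signal of each tested ABC gene on every array, as the difference from the mean of the 3 scrambled control arrays of that gene; antagomiR-138 arrays are filled red points, drawn above the open blue points of scrambled control. Lines part the genes by role, from ABCA at the top to the pseudogenes at the bottom. ABCA1 lies farthest to the right and ABCC3 farthest to the left, with 1 antagomiR-138 array of ABCA2 also near −1.

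None of the ABCB genes for surface exporters entered the test. ABCB1, the P-glycoprotein, was above background on 0 arrays with either of its 2 probes (lowest detection p 0.123), and its log2 signals lay between 4.37 and 5.17. ABCB4, which moves phosphatidylcholine into bile, and ABCB5 were likewise above background on 0 arrays. ABCB11, the bile salt export pump, was above background on 1 antagomiR-138 and 1 control array.

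The ABCB genes of organelles moved little. ABCB10, of the mitochondrial inner membrane and linked to haem synthesis, gave 10.06, 9.98 and 10.04 in antagomiR-138 and 10.23, 10.23 and 10.33 in scrambled control. The groups did not overlap (log2 fold change −0.23, SE 0.0584, limma adjusted p = 0.0115), and the call was lost with median scaling of the arrays (adjusted p = 0.111). ABCB6, a porphyrin transporter, gave 7.89, 7.65 and 7.48 in antagomiR-138 and 7.83, 7.91 and 8.03 in scrambled control. Its groups overlapped through antagomiR-138 replicate 1 (log2 fold change −0.25, limma adjusted p = 0.0964), and without that array it passed (−0.35, adjusted p = 0.0195).

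ABCB9, a lysosomal peptide transporter related to TAP, had log2 signals of 10.04, 10.16 and 10.12 in antagomiR-138 and 9.81, 9.94 and 9.95 in scrambled control. The gap between groups was narrow but without overlap (log2 fold change 0.21, SE 0.0664, limma adjusted p = 0.0296). The call of this probe was lost without antagomiR-138 replicate 2 (0.18, adjusted p = 0.0882) or 3 (0.20, adjusted p = 0.0760) and without scrambled control replicate 1 (0.16, adjusted p = 0.0857). Another ABCB9 probe rose more, at 8.62, 8.62 and 8.62 in antagomiR-138 and 8.14, 8.23 and 8.18 in scrambled control (log2 fold change 0.44, adjusted p = 0.00104 over all entering probes). ABCB8, a mitochondrial member, was above background on 0 arrays.

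ABCD3, also known as the peroxisomal membrane protein PMP70, brings branched-chain acyl-CoA and bile acid precursors into peroxisomes. It was the only ABCD gene of 3 that entered the test. Its log2 signals were 8.38, 8.49 and 8.03 in antagomiR-138 and 8.86, 8.52 and 8.69 in scrambled control, so that antagomiR-138 replicate 2 came within 0.1 of a control. The log2 fold change was −0.39 (SE 0.139, limma adjusted p = 0.0465). In 10 of 19 other settings the call was lost, among them without antagomiR-138 replicate 1 (−0.43, adjusted p = 0.0699) or 3 (−0.25, adjusted p = 0.103) and without scrambled control replicate 1 (−0.30, adjusted p = 0.135) or 3 (−0.39, adjusted p = 0.101).

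Of the 4 tested genes for soluble ATPases of translation, 3 were higher and 1 did not pass, where 30.9% of all genes were higher. For ABCF2, among the 3, another probe went the opposite way. ABCE1, which splits the ribosome after termination, had log2 signals of 11.46, 11.53 and 11.63 in antagomiR-138 and 11.23, 10.97 and 11.05 in scrambled control. All antagomiR-138 arrays were above all controls (1.37-fold higher, log2 fold change 0.45, SE 0.0845, limma adjusted p = 0.00308). Another ABCE1 probe gave 0.58 (adjusted p = 0.000957 over all entering probes).

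ABCF1, which associates with eIF2 and ribosomes in translation initiation, gave 13.01, 13.11 and 13.04 in antagomiR-138 and 12.65, 12.59 and 12.72 in scrambled control. Every antagomiR-138 array exceeded every control (1.32-fold higher, log2 fold change 0.40, SE 0.0619, limma adjusted p = 0.00132), and another probe of ABCF1 also gave 0.40. ABCF3 did not pass, with overlapping values of 7.05, 6.71 and 6.84 in antagomiR-138 and 6.72, 6.81 and 6.74 in scrambled control (log2 fold change 0.11, 95% confidence interval −0.11 to 0.33).

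For ABCF2 the direction depended on the probe. The brighter probe, designed to transcript NM_007189, read 9.005, 8.702 and 8.906 in antagomiR-138 and 8.333, 8.444 and 8.572 in scrambled control (1.34-fold higher, log2 fold change 0.42, SE 0.0993, limma adjusted p = 0.00898). The other entering probe, designed to NM_005692, read 8.38, 8.35 and 8.34 in antagomiR-138 and 8.93, 8.54 and 8.68 in scrambled control. There all antagomiR-138 arrays were below all controls (log2 fold change −0.36, SE 0.105, adjusted p = 0.0268 over all entering probes). RefSeq now assigns NM_005692 to ABCF2-H2BK1, a gene record of its own. Within each array the brighter probe minus the other was 0.62, 0.35 and 0.57 in antagomiR-138 and −0.60, −0.10 and −0.11 in scrambled control. This difference of 0.78 between the groups had p = 0.1 in a two-sided exact permutation test, the smallest that 3 arrays against 3 allow (adjusted p = 0.3 over 6 pairs of probes). With the mean of the ABCF2 probes the log2 fold change was 0.03 (adjusted p = 0.737).

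**Figure D4:**
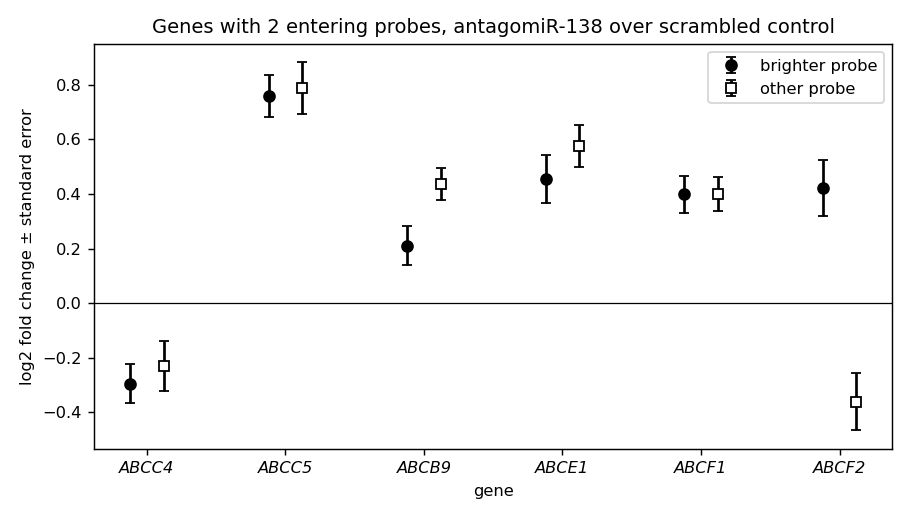
Log2 fold change (antagomiR-138 over scrambled control) with its SE for the 6 ABC genes with 2 entering probes, the brighter probe filled and the other open. The probes lie on the same side of 0 in 5 genes, and for ABCF2 they lie at 0.42 and −0.36.

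Pseudogenes and truncated copies closed the list, and neither of the 2 tested passed, where 60.1% of all genes passed. ABCA11P gave 7.02, 6.79 and 6.82 in antagomiR-138 and 7.40, 6.97 and 7.13 in scrambled control (log2 fold change −0.29, limma adjusted p = 0.0724). Its groups overlapped, and it passed without scrambled control replicate 2 (−0.39, adjusted p = 0.0296). ABCC6P2, a partial copy of the ABCC6 gene whose sequence its probe may share, gave 5.62, 5.72 and 5.66 in antagomiR-138 and 5.42, 5.29 and 5.87 in scrambled control, with overlap (log2 fold change 0.14, limma adjusted p = 0.447). It passed without scrambled control replicate 3 (0.31, adjusted p = 0.0160).

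The 22 ABC genes that did not enter the test had 30 probes, of which 26 were above background on 0 arrays. They include the sulphonylurea receptors ABCC8 and ABCC9 of the KATP channel, the retinal ABCA4, the skin lipid transporter ABCA12, the plant sterol exporters ABCG5 and ABCG8, ABCD2, and ABCD4, which serves lysosomal vitamin B12 export. ABCA6, ABCA13, ABCC12, ABCC13 and ABCA17P were also above background on 0 arrays. ABCA5 and ABCC6P1 were above it on 1 array each, both antagomiR-138 replicates. With no detection filter the log2 fold change of ABCC6P1 was 0.43 (adjusted p = 0.0258). A signal below background on these arrays was not detectable, which is not the same as absent.

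Genes that act with ABC transporters were listed by function, and 134 of them were tested. Of these, 51 were higher and 43 lower, so that 70.1% passed. Of all tested genes 60.1% passed, 30.9% higher and 29.1% lower. Cholesterol handling did not follow ABCA1 as a block: of 14 sterol export and LXR genes, 3 were higher and 9 lower, and 2 did not pass. In this list 85.7% passed, and the median log2 fold change was −0.39. The LXR proteins are oxysterol receptors that turn on ABCA1 and ABCG1. NR1H3, the gene of LXR alpha, fell by 0.48 on the log2 scale. SMPDL3A, a phosphodiesterase gene induced by LXR, averaged 9.38 ± 0.15 in antagomiR-138 and 7.76 ± 0.03 in scrambled control (SD, n = 3 each; log2 fold change 1.62, limma adjusted p = 1.15e-05). MYLIP, the LXR-induced ligase that degrades the LDL receptor, rose by 0.36. LPL (lipoprotein lipase) fell by 0.95, with 2 of 3 antagomiR-138 arrays above background, and NPC1, of lysosomal cholesterol export, fell by 0.71. Among other LXR-linked genes of the list, SREBF1 fell by 0.69, APOC1 by 0.55 and LPCAT3 by 0.23, while SCARB1 rose by 0.28. Any part of LXR in these changes was not tested.

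Glutathione conjugation supplies substrates to the ABCC exporters. Of 17 tested genes of that list 4 were higher and 10 lower, and 3 did not pass (median −0.41). The 82.4% that passed compares with 60.1% of all genes. GSTO1 (log2 fold change 0.88) and GCLC (0.73), of glutathione synthesis, were higher. Of the other synthesis genes, GCLM was lower (−0.44, limma adjusted p = 0.000948) and GSS did not pass (0.05, adjusted p = 0.621). GSTM3 fell by 0.95. GSTM4 was at least 2.52-fold lower, above background on 3 of 3 control arrays and 0 of 3 antagomiR-138 arrays (mean 4.69 in antagomiR-138 and 6.74 in scrambled control); the GSTM genes are near-identical in places and their probes may share transcripts. Of 14 regulators tied to drug resistance 6 were higher and 3 lower, and 5 did not pass (median 0.05, 64.3% passed). MYC rose by 0.56 and CEBPB by 0.49, while SP1 fell by 0.55 and HIF1A by 0.40. NFE2L2, the NRF2 gene that drives several ABCC genes, had a log2 fold change of −0.10 (limma adjusted p = 0.260).

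Of 27 peroxisome and cobalamin genes, the setting of the ABCD proteins, 9 were higher and 11 lower, and 7 did not pass (median −0.14). Here 74.1% passed, against 60.1% of all genes. CROT, which hands shortened fatty acids from peroxisomes to carnitine, fell by 1.35 and EHHADH, of peroxisomal beta-oxidation, by 0.89, whereas PEX6, a receptor recycling ATPase, rose by 0.75. MTR, the cobalamin-dependent methionine synthase and no peroxisomal protein, rose by 0.53. PEX19, the chaperone that inserts ABCD3 into the membrane, fell by 0.41.

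Listed beside ABCB6 and ABCB10 were iron-sulphur and haem genes, mitochondrial and cytosolic. Of the 32 tested, 13 were higher and 8 lower, and 11 did not pass (median 0.10). In that list 65.6% passed, against 60.1% of all genes. FECH, the last enzyme of haem synthesis, was 4.03-fold lower (log2 fold change −2.01, SE 0.0670, limma adjusted p = 3.16e-06), and CIAO2B, of cytosolic iron-sulphur assembly, fell by 1.81. ISCA1 and NFS1, of mitochondrial iron-sulphur assembly, rose by 1.00 and 0.80.

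Translation factors around ABCE1 and ABCF1 were more often higher than lower: of 26 tested, 12 were higher and 2 lower, and 12 did not pass (median 0.16), and the 53.8% that passed is below the 60.1% of all genes. EIF3J, an initiation factor subunit that acts with ABCE1 in recycling, rose by 1.17 and the release factor gene GSPT2 by 1.13. PELO, which rescues stalled ribosomes with ABCE1, rose by 0.44, and EIF2S1, the alpha subunit of eIF2, by 1.09. The other eIF2 subunit genes did not pass: EIF2S2 (log2 fold change −0.11, limma adjusted p = 0.344) and EIF2S3 (−0.08, adjusted p = 0.251). EIF2B2 fell by 0.50 and DENR by 0.35.

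The TAP peptide transporter belongs to the ABCB branch but carries symbols outside the naming rule. TAP1 averaged 12.89 ± 0.03 in antagomiR-138 and 12.27 ± 0.05 in scrambled control (log2 fold change 0.62, limma adjusted p = 0.000114), and TAP2 averaged 11.22 ± 0.03 in antagomiR-138 and 10.78 ± 0.08 in scrambled control (0.44, adjusted p = 0.000817; SD, n = 3 each). Their loading partner TAPBP (tapasin) rose by 0.89 and the tapasin-like TAPBPL by 0.48. The KATP pore genes KCNJ8 and KCNJ11 did not enter the test, like the ABCC8 and ABCC9 receptors that pair with them.

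**Figure D5:**
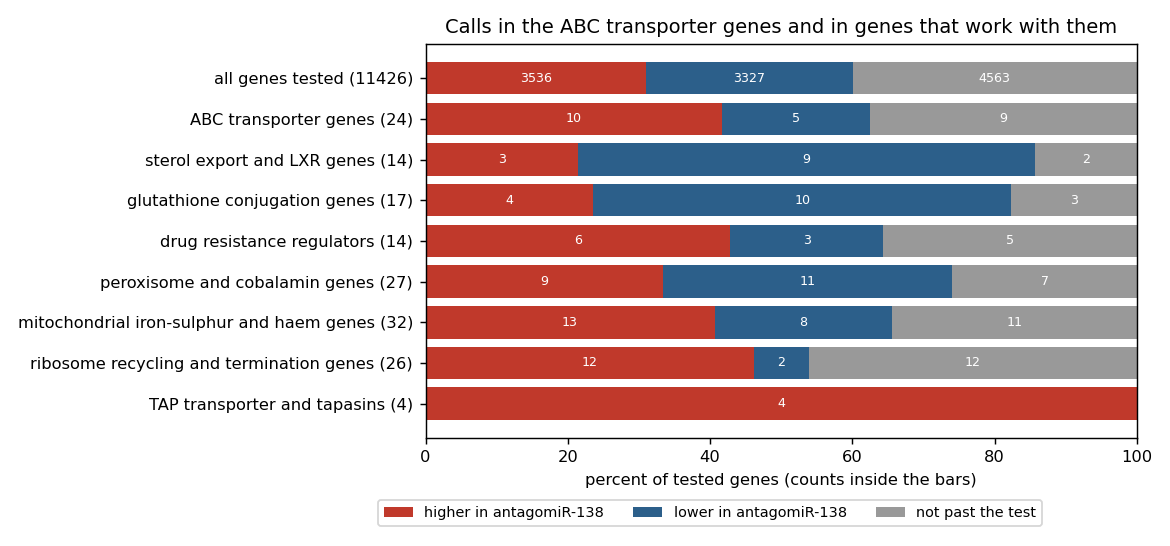
Percent of tested genes that were higher (red), lower (blue) or not past the test (grey) in antagomiR-138 against scrambled control, for all tested genes, the ABC genes and each list of genes that work with them, with counts inside the bars and the number tested in brackets. The ABC bar (10, 5 and 9 genes) is close to that of all genes, while the sterol export and glutathione bars have most of their length in blue.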

How the data were processed

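The authors hybridized biotinylated cRNA and deposited linear probe intensity with background subtracted and without normalization across arrays, beside a detection p-value of every probe. Their other intensity table is normalized by a method not given in the sources used here (array medians 14.46 to 14.47, rank correlation with the unnormalized values 1). GenomeStudio 1.9.0 stands in the submitters' processing notes, BeadStudio and Partek in the methods.

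Of 47322 probes, 30113 have 1 gene symbol in the platform annotation, 8 have several and 17201 have none there. That annotation is of a later Illumina array version than the one the methods name, and probes were matched to it by identifier. Symbols were updated through Entrez identifiers in RefSeq, which changed 0 of the member symbols. ABC genes with no probe under that rule were not analysed here.

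The neqc function of limma 3.58.1 (R 4.3.3) applied normexp correction, using detection p-values to find the background, then quantiles and log2, at an offset of 16. The detection filter (p under 0.05, 3 arrays or more) admitted 20051 probes. The brightest admitted probe stood for each gene and was tested with lmFit and eBayes, two-sided, on the 6 samples without covariates and adjusted by Benjamini-Hochberg across 11426 genes. The offset shrinks fold changes of dim genes. Where no array of a group had the probe above background, a bound was computed against the higher of that array's lowest detected signal and the probe's own. The fit was tested on simulated data. Samples were grouped from the labels. Other background corrections, normalizations, filters, variance models, thresholds, the replicate number as a block and leaving out each sample were tried. Every tested ABC gene is described with its values by array, and of each list of partner genes the 2 strongest rises and falls. NR1H3, SREBF1, APOC1, LPCAT3, SCARB1, NFE2L2, GCLM, GSS, PEX19, PELO, EIF2S1, EIF2S2 and EIF2S3 were named after their values were seen. The members and lists were chosen with earlier results of these data known. No slide was known, so no batch term was fitted.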

Additional observations from a re-analysis of the deposited data

How the results depend on the processing

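Of 451 values of the 24 tested ABC genes under 19 other settings, 387 kept their direction and side of the threshold, 40 lost the call, 16 gained one and 8 changed sign, all 8 in ABCA8 or ABCA9. ABCA8 was at 0.0014 with a normexp offset of 50 and between −0.20 and 0.12 when 1 sample was left out. ABCA9 was between −0.16 and 0.075 when 1 sample was left out, and neither gene passed in any setting. With a change of at least 1.5-fold required as well, the counts were 2873 of all genes, 5 ABC genes (4 higher and 1 lower) and 32 partner genes (94 of 134 without it), since this adds a criterion. At an adjusted p under 0.01, 3 ABC genes were lower and 8 were higher, where 45.7% of all genes passed. Leaving out 1 sample gave 12 to 15 called ABC genes, 8 to 10 of them higher and 4 to 6 lower, and a median of 0.05 to 0.09. In those fits 54.4% to 56.0% of all genes passed. The ABC median was −0.00 with median scaling and 0.11 with detection p under 0.01 on all 6 arrays. The methods' t-test gave 14 of 24 ABC genes at their threshold of 0.05, where 6856 of 11426 genes passed. After Benjamini-Hochberg adjustment it gave 13 ABC genes, where 53.6% of all genes passed. The replicate numbers did not pair the samples (correlation of deviations 0.00 to 0.05 for equal numbers). With the replicate number as a block 16 ABC genes passed, where 57.6% of all genes passed. In that limma fit ABCD3 lost its call (adjusted p = 0.0615), and ABCG4 (adjusted p = 0.0394) and ABCA11P (adjusted p = 0.0191) gained one. ABCA8 was above background on 3 of 6 arrays, ABCC11 on 3 and ABCG2 on 2, which limits what their values show.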
